A study of Homo sapiens with 12 samples.

Results

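The genes described here are 10 secreted chemokines and inflammatory cytokines, CXCL1, CXCL2, CXCL3, CXCL5, CXCL8, CCL2, CCL20, IL6, LIF and IL18. They were taken by name from a table of 22963 gene names with FPKM values (fragments per kilobase of transcript, scaled to the total of fragments mapped in the library), and all 10 names were found. The table holds 12 RNA-seq libraries of human hepatocellular carcinoma (HCC) cell lines, in 4 groups of 3. The study asked which genes respond to EGR1, a zinc finger transcription factor of the immediate early response. In PLC/PRF5 cells, libraries of the empty vector were set against libraries with EGR1 overexpression. EGR1 was expressed from a lentiviral plasmid in which a CMV promoter precedes the inserted coding sequence, with copGFP and puromycin resistance as markers. In MHCC97H cells, parental cells were set against cells with an EGR1 knockout made with CRISPR/Cas9. The knockout lines were grown from single clones and checked in the study at the protein and DNA level. Which clone was sequenced is not stated in the sources used here. The labels name no added agent, and both lines grew in DMEM with 10% fetal bovine serum.

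Chemokines are small proteins that draw leukocytes along a gradient. The ELR-type CXC chemokines (CXCL1, CXCL2, CXCL3, CXCL5 and CXCL8) act on CXCR2, and CXCL8 also on CXCR1, and are known for recruiting neutrophils. CCL2 acts on CCR2 of monocytes and CCL20 on CCR6 of lymphocytes and dendritic cells. IL6 and LIF signal through gp130 and STAT3, which in hepatocytes drives the acute phase response, and IL18 is a member of the IL-1 family that is stored as a precursor and cut by caspase-1. Most of these genes are induced by NF-kB downstream of IL-1, TNF and Toll-like receptors, and many of their mRNAs are short-lived because of AU-rich elements in the 3′ UTR.

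EGR1 itself was measured first as a check of the labels. Its FPKM was 1.97, 1.43 and 2.03 in the vector libraries and 56.3, 50.2 and 52.2 with EGR1 overexpression. In MHCC97H cells it was 20.2, 23.1 and 21.2 in parental libraries and 35.2, 50.3 and 32.9 in the libraries labelled knockout. EGR1 mRNA was therefore higher in every library labelled knockout than in every parental library, by 0.83 on the log2(FPKM + 1) scale (limma adjusted p = 0.00126), and by 0.45 once corrected for GC content and length (adjusted p = 0.0484, limma). An edited allele can still give mRNA, so this level does not measure the protein. Every direction for MHCC97H cells is therefore given for libraries by their label, with EGR1 mRNA not lower in them.

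FPKM summed to 376335 to 437652 per library, and the number of reads behind a value is unknown. Of 10 hepatocyte markers, 9 reached a mean FPKM of 1 in vector and in EGR1 libraries, 6 in parental and 7 in those labelled knockout, with summed FPKM of 2760 to 2930, 2760 to 3210, 1470 to 1850 and 2250 to 2680 in that order. KRT8 and KRT18 were high in all groups, whereas ALB averaged 116 FPKM in vector and 0.885 in parental cells and APOA2 was listed at 0 in all 6 MHCC97H libraries. Of 8 leukocyte markers, 2 reached a mean FPKM of 1 in vector, EGR1 and parental libraries and 3 in those labelled knockout. Their summed FPKM ranged over 152 to 216 in vector, 126 to 157 in EGR1, 48.8 to 57.3 in parental and 79.7 to 86.7 in knockout-labelled libraries, while the pan-leukocyte gene PTPRC and the T cell gene CD3E stayed at or near 0. CD68 was high in all 4 groups, at means of 37.6, 35.6, 28.5 and 53.8 FPKM in the same order, and CD14 reached 1.47 FPKM in knockout-labelled libraries. LYZ (mean 142 FPKM in vector) and CD79A (24.0 in parental) were high in 1 line each. Of 5 endothelial markers, 1 reached a mean FPKM of 1 in vector, EGR1 and parental libraries and 2 in the knockout-labelled ones, with sums of 2.09 to 2.66, 1.5 to 1.58, 5.5 to 5.75 and 7.25 to 8.55 in that order. PECAM1 was at means of 2.43, 1.5, 5.10 and 5.99 FPKM and KDR at 0, 0, 0.504 and 1.80, with VWF near 0. Of 7 fibroblast markers, 0 reached it in PLC/PRF5 groups and 1 in each MHCC97H group, with sums of 1.44 to 1.64, 1.3 to 1.95, 7.52 to 10.9 and 1.05 to 1.54, LUM accounting for most of the parental sum and COL1A1 near 0. The part of these markers in the results below was not tested. In such bulk RNA, fewer cells that use a gene and less RNA per cell cannot be told apart.

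Of the 10 genes, 5 lie in 1 cluster on chromosome 4 (GRCh38, GENCODE 29). CXCL8 (ENSG00000169429.10) is at chr4:73740506-73743716 on the plus strand and CXCL1 (ENSG00000163739.4) at chr4:73869393-73871242 on the plus strand. CXCL5 (ENSG00000163735.6) is at chr4:73995642-73998779, CXCL3 (ENSG00000163734.4) at chr4:74036589-74038807 and CXCL2 (ENSG00000081041.8) at chr4:74097035-74099293, all on the minus strand. These 5 genes have 4 exons each. The coding sequences of CXCL1, CXCL2 and CXCL3 were 90.7% to 94.4% identical, so reads of these 3 genes could be split or shared by the counting and their values are uncertain to that extent. CXCL5 and CXCL8 were 53.6% to 62.1% identical to the others and 54.0% to each other. Outside the cluster lie CCL2 (ENSG00000108691.9, chr17:34255218-34257203, plus strand), CCL20 (ENSG00000115009.12, chr2:227805739-227817564, plus strand) and IL6 (ENSG00000136244.11, chr7:22725884-22732002, plus strand). LIF (ENSG00000128342.4) is at chr22:30240447-30246851 and IL18 (ENSG00000150782.11) at chr11:112143251-112164117, both on the minus strand.

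Of the 10 genes, 7 had an entry in the RefSeq promoter table (GRCh38.p14): CXCL1, CXCL2, CXCL3, CXCL5, CXCL8, CCL20 and IL6. The 250 bases before each start were searched on both strands for GGAATTTCC and for GGG and CC with any 5 bases in between, a strict and a loose form of the kB element that NF-kB binds. The strict form was found in 5 of the 7, all of them the CXC genes of the cluster, and in 0.413% of the 35116 promoters in the table. The loose form, which overlaps the strict one wherever a G precedes it or a C follows it, was found in all 7 and in 54.4% of promoters. IL6 (GGGATTTTCC) and CCL20 (GGGGAAAACC) matched the loose form only, so the count of 5 depends on the string chosen as strict. CXCL1, CXCL2 and CXCL3 also have much upstream sequence in common, so their matches are not independent. The strict match of each gene is shown in capitals with 10 bases on either side, 5′ to 3′ on the gene's own strand, because it is the element these 5 genes share.
CXCL1: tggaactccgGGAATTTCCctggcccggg
CXCL2: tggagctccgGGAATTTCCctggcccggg
CXCL3: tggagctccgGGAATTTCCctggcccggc
CXCL5: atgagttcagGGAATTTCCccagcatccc
CXCL8: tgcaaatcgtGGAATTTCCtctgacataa
These runs lie at chr4:73869305-73869333 (plus strand), chr4:74099254-74099282 (minus), chr4:74038749-74038777 (minus), chr4:73998749-73998777 (minus) and chr4:73740468-73740496 (plus). Counted from the base before the start as position -1, the match began at position -78 in CXCL1, -77 in CXCL2, -78 in CXCL3, -90 in CXCL5 and -91 in CXCL8. These positions refer to the RefSeq start. GENCODE exons cover the last 98 bases before that start in CXCL2, 118 in CXCL3 and 102 in CXCL5. In these genes the match is therefore inside a GENCODE exon, whereas in CXCL1 and CXCL8 it lies outside GENCODE exons. Over all 250 bases, CXCL1 was identical to CXCL3 in 81.4% and to CXCL2 in 70.1% of aligned columns, and to CXCL8 in 43.9%.

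Longer upstream runs are given for the 3 genes that differ most between the control groups of the lines on the log2(FPKM + 1) scale, up to the first base that GENCODE 29 places in an exon of the gene. They cover chr4:73869143-73869392 for CXCL1, chr4:73740319-73740505 for CXCL8 and chr2:227813592-227813821 for CCL20, all on the plus strand. The CCL20 run lies inside the span that GENCODE 29 gives this gene (chr2:227805739-227817564). It is therefore upstream of the RefSeq start used here, not of the first GENCODE start. Capitals mark matches of either kB form.
CXCL1: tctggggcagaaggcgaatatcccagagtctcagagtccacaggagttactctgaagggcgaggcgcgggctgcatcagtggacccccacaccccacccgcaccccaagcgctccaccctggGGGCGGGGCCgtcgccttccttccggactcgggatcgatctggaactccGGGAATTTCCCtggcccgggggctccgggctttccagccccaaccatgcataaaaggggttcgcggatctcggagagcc
CXCL8: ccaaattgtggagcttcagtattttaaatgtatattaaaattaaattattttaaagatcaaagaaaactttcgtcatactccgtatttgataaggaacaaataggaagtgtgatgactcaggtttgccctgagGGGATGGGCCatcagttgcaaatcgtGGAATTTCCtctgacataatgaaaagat
CCL20: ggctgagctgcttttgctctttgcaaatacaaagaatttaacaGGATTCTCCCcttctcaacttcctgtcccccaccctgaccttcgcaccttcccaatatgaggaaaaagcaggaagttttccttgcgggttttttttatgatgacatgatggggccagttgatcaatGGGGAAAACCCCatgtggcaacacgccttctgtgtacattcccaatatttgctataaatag
Of the other motifs, TGANTCA (AP-1) was found in CXCL8 alone of the 7, at positions -137 to -131, and in 6.57% of promoters. TATAAA, the core promoter box bound by TBP, was found in CXCL8 and CCL20 and in 10.7% of promoters. In CXCL8 it lies in the last 63 bases before the RefSeq start, which GENCODE places in an exon. GCGNGGGCG, the EGR1 element, was found in 0 of the 7 and in 8.41% of promoters, which says only that these letters are not in these windows.

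CXCL1, CXCL2, CXCL5, CXCL8 and CCL20 differed more between the control groups of the lines than between the groups within either line. So did IL18, by a smaller margin (-0.48 between the controls, 0.31 and -0.25 within the lines). LIF, by contrast, differed by 1.10 between the controls and by 1.33 and 0.92 within the lines on the log2(FPKM + 1) scale. In vector-carrying PLC/PRF5 cells CXCL8, CCL20, IL18 and CXCL1 were the most abundant of the 10 per transcript length, whereas in parental MHCC97H cells IL18 and CXCL5 were. Of the 10 genes, 7 passed the filter (a mean FPKM of at least 1 over the 6 libraries), and 2 were called higher and 5 lower in parental than in vector cells at an adjusted p under 0.05, where 38.8% of the 12046 genes tested were called higher and 40.9% lower (79.8% in all). Between these 2 control groups, 8 of the 10 did not overlap, the barely detected IL6 among them, against 81.0% of all genes tested. No excess over all genes is read from this. The 10 include genes under the filter (CXCL3, CCL2 and IL6), whereas the 81.0% is over tested genes, so the shares are not directly comparable. Cell line, vector, selection and all else that differs between these controls cannot be told apart.

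**Figure D1:**
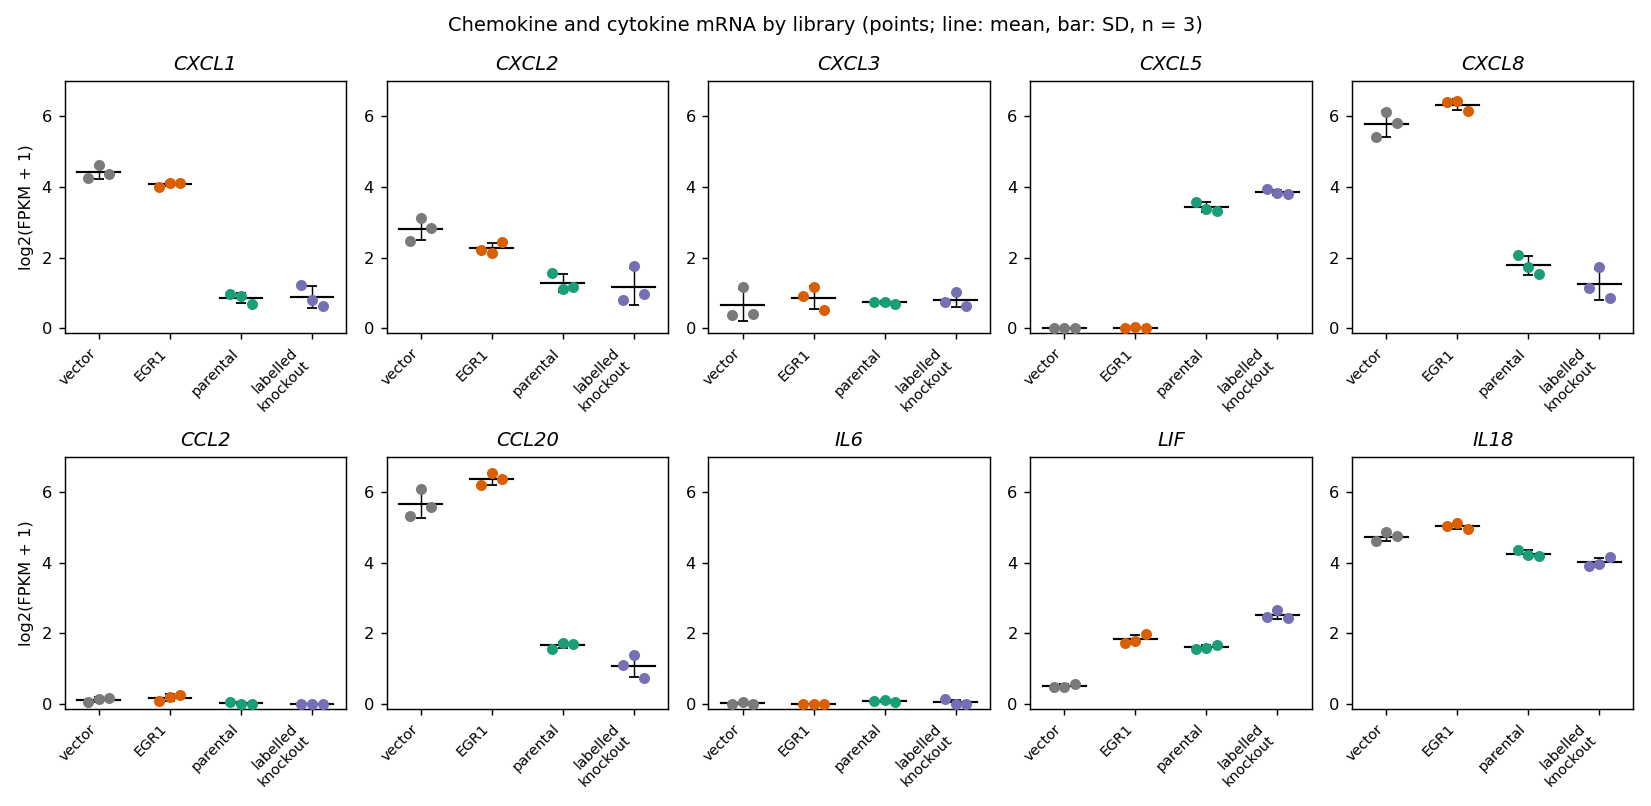
Expression of the 10 genes in each of 12 libraries, as log2(FPKM + 1) on a common axis, with vector and EGR1 libraries of PLC/PRF5 cells and parental and knockout-labelled libraries of MHCC97H cells from left to right. Points are libraries, lines are group means and bars are SDs (n = 3). CXCL1, CXCL8 and CCL20 are high in PLC/PRF5 cells, CXCL5 is seen in MHCC97H cells, and LIF is higher in the right-hand group of each line.

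CXCL8 (interleukin 8), a potent neutrophil attractant, was at 41.4, 68.7 and 54.9 FPKM in vector libraries and at 84.0, 85.2 and 70.5 with EGR1 overexpression. It was at 3.19, 2.32 and 1.91 FPKM in parental libraries and at 1.22, 2.30 and 0.810 in those labelled knockout. All 6 PLC/PRF5 libraries stood above all 6 MHCC97H libraries, the EGR1 libraries stood above the vector libraries without overlap, and the knockout-labelled libraries overlapped the parental ones. Parental cells were 4.00 lower than vector cells on the log2(FPKM + 1) scale (limma adjusted p = 1.83e-07), a ratio of mean FPKM of 0.0449. CXCL8 rose by 0.55 ± 0.17 (SE) with EGR1 (limma adjusted p = 0.0367), a ratio of 1.45. The knockout-labelled libraries differed from parental by -0.53 with a 95% interval of -1.03 to -0.04, which did not pass the test (limma adjusted p = 0.0555). It passed without parental replicate 3 (-0.65) and without knockout-labelled replicate 2 (-0.77), and shrank to -0.34 without knockout-labelled replicate 3 (limma adjusted p = 0.0392, 0.00429 and 0.181).

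CXCL1 (GRO alpha) was at 18.0, 23.5 and 19.8 FPKM in vector and 15.0, 16.3 and 16.4 in EGR1 libraries. The MHCC97H libraries were at 0.942, 0.872 and 0.608 FPKM (parental) and 1.33, 0.751 and 0.532 FPKM (labelled knockout). The EGR1 libraries were all below the vector libraries, and both MHCC97H groups overlapped at a low level. CXCL1 fell by 0.33 ± 0.11 (SE) with EGR1 (limma adjusted p = 0.0464), a ratio of 0.780. It was lower in parental than in vector cells (log2 difference -3.56, limma adjusted p = 2.92e-08), where it passed the filter only through the vector group. With every gene above 0 in at least 1 library tested that adjusted p was 2.98e-06 (limma). Within MHCC97H cells CXCL1 stayed under the filter.

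CXCL2 (GRO beta), which has nearly the same coding sequence, was at 4.55, 7.62 and 6.17 FPKM in vector and 3.67, 3.40 and 4.43 in EGR1 libraries. In MHCC97H cells it was at 1.98, 1.16 and 1.27 FPKM in parental and 0.728, 2.42 and 0.955 in knockout-labelled libraries. The EGR1 libraries lay below the vector libraries, with vector replicate 1 only just above EGR1 replicate 3. It fell by 0.54 ± 0.16 (SE) with EGR1 (limma adjusted p = 0.0355), a ratio of 0.627. The knockout-labelled libraries spanned the parental ones (log2 difference -0.11, 95% interval -0.66 to 0.44, limma adjusted p = 0.701). CXCL2 was lower in parental than in vector cells (log2 difference -1.52, limma adjusted p = 6.33e-05).

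CXCL3 (GRO gamma) stayed near the limit of the measurement in every group. It was at 0.300, 1.25 and 0.315 FPKM in vector, 0.883, 1.23 and 0.428 in EGR1, 0.674, 0.686 and 0.614 in parental and 0.670, 1.02 and 0.546 in knockout-labelled libraries. All neighbouring groups overlapped, and CXCL3 did not pass the filter in any comparison. With every gene above 0 in at least 1 library tested, its log2 difference was 0.21 for EGR1 against vector (95% interval -0.42 to 0.85, limma adjusted p = 0.625) and 0.06 for knockout-labelled against parental libraries (limma adjusted p = 0.666).

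CXCL5 (ENA-78) had the opposite pattern between the lines. It was listed at 0 in all 3 vector libraries and at 0, 0.0212 and 0 FPKM in EGR1 libraries. It was at 10.9, 9.38 and 8.90 FPKM in parental and 14.2, 13.1 and 13.0 in knockout-labelled libraries. Both MHCC97H groups stood above every PLC/PRF5 library, and the knockout-labelled libraries stood above the parental ones without overlap. CXCL5 rose by 0.43 ± 0.10 (SE) in knockout-labelled libraries (limma adjusted p = 0.00533), a ratio of 1.38. Against the vector group, in which it was listed at 0, no fold is given, and it passed that filter only through the parental group.

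Along chromosome 4, CXCL8, CXCL1 and CXCL2 were the expressed genes of the cluster in PLC/PRF5 cells, and CXCL5 was the most abundant in MHCC97H cells. Of the related genes in between, CXCL6 and PPBP were low, with highest libraries of 0.0569 and 0.224 FPKM, and PF4V1 was listed at 0 throughout. PF4 was at means of 0.0225 FPKM in vector, 0 in EGR1, 0.564 in parental and 1.44 in knockout-labelled libraries, the last being the level of CXCL8 in that group. CXCL1 starts 128.9 kb and CXCL5 258.3 kb from CXCL8, with PF4 and PPBP in between, so genes that are low and high in the same line are interspersed.

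CCL20 (MIP-3 alpha), the ligand of CCR6, was at 39.0, 67.3 and 46.4 FPKM in vector libraries and at 72.0, 91.4 and 81.1 with EGR1 overexpression. It was at 1.95, 2.31 and 2.21 FPKM in parental libraries and at 1.14, 1.59 and 0.670 in those labelled knockout. The order was EGR1, vector, parental and knockout-labelled, and no neighbouring groups overlapped. CCL20 rose by 0.70 ± 0.18 (SE) with EGR1 (limma adjusted p = 0.0206), a ratio of 1.60. It fell by 0.59 ± 0.16 (SE) in the knockout-labelled libraries (limma adjusted p = 0.0103), a ratio of 0.525. Parental cells were lower than vector cells (log2 difference -4.00, limma adjusted p = 1.10e-07).

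CCL2 (MCP-1) was barely detected. It was at 0.0291, 0.105 and 0.126 FPKM in vector, 0.0487, 0.142 and 0.195 in EGR1 and 0.0361, 0 and 0 in parental libraries, and was listed at 0 in all 3 knockout-labelled libraries. IL6, the main inducer of the acute phase response, was also barely detected, with a highest library of 0.0953 FPKM. It was listed at 0 in 2 vector, 3 EGR1, 0 parental and 2 knockout-labelled libraries. Neither gene passed the filter in any comparison, and no difference in them was detectable at such levels. Parental and vector libraries did not overlap for IL6, at 0.0305 to 0.0755 FPKM against 0 to 0.0289 (limma adjusted p = 0.0716 with every gene above 0 in at least 1 library tested).

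LIF (leukaemia inhibitory factor), the other gp130 cytokine of the set, was higher in the second group of both lines. It was at 0.387, 0.393 and 0.487 FPKM in vector libraries and at 2.33, 2.46 and 2.94 with EGR1 overexpression. In MHCC97H cells it was at 1.92, 2.02 and 2.20 FPKM in parental and 4.51, 5.36 and 4.40 in knockout-labelled libraries. The order was knockout-labelled, EGR1, parental and vector, and no neighbouring groups overlapped. LIF rose by 1.33 ± 0.11 (SE) with EGR1 (limma adjusted p = 0.000125), a ratio of mean FPKM of 6.10. It passed the filter there only through the EGR1 group, and with every gene above 0 in at least 1 library tested its adjusted p was 0.00177 (limma). It rose by 0.92 ± 0.11 (SE) in the knockout-labelled libraries (limma adjusted p = 0.000172), a ratio of 2.33. EGR1 mRNA was higher in both of these groups than in their controls, and a link between it and LIF was not tested. Parental cells were higher than vector cells by 1.10 (limma adjusted p = 3.39e-06), a ratio of 4.84. LIF passed the filter there only through the parental group, and with every gene above 0 in at least 1 library tested the adjusted p was 2.87e-05 (limma).

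IL18, the IL-1 family cytokine of the set, was the one member with a mean FPKM above 15 in every group. It was at 23.3, 28.1 and 25.8 FPKM in vector and 31.8, 33.8 and 30.3 in EGR1 libraries. In MHCC97H cells it was at 19.6, 17.6 and 17.1 FPKM in parental and 13.9, 14.6 and 16.9 in knockout-labelled libraries. The order of groups was that of CCL20, with no overlap between neighbours, over a far narrower range. IL18 rose by 0.31 ± 0.09 (SE) with EGR1 (limma adjusted p = 0.0400), a ratio of 1.24. The knockout-labelled libraries differed from parental by -0.25 (95% interval -0.48 to -0.01), which did not pass the test (limma adjusted p = 0.0604) and did so without knockout-labelled replicate 3 (limma adjusted p = 0.0272). Parental cells were lower than vector cells (log2 difference -0.48, limma adjusted p = 0.00176).

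With EGR1 overexpression, 4 of the 10 genes were called higher (LIF, CCL20, CXCL8 and IL18) and 2 lower (CXCL1 and CXCL2), where 19.2% of the 11671 genes tested were called higher and 10.4% lower (29.6% in all). The 6 genes called were the 6 that passed the filter, LIF only through the EGR1 group. The same 6 of 10 did not overlap between groups, against 47.7% of all genes tested, a share that leaves out genes under the filter. Except for LIF, these calls were close to the threshold. With every gene above 0 in at least 1 library tested, where 15.1% of genes were called, LIF alone of the 10 was called, and the adjusted p of the other 5 was 0.0603 to 0.0995 (limma). The number called was 1 without vector replicate 3 or without EGR1 replicate 2, 2 without EGR1 replicate 1, 3 without vector replicate 1 or without EGR1 replicate 3, and 4 without vector replicate 2. LIF was called each time. CXCL1 was called without vector replicate 1, CXCL2 without vector replicate 1 or EGR1 replicate 3, CXCL8 without vector replicate 2 or EGR1 replicate 3, CCL20 without vector replicate 2 or EGR1 replicate 1, and IL18 without vector replicate 2, and not otherwise. The rise of CXCL8 shrank to 0.37 without vector replicate 1 (limma adjusted p = 0.0929). Vector replicate 2 held the highest of the 3 vector values for 6 of the 8 members above 0 in all of them, and for 47.6% of all genes tested. An exact permutation test of 3 against 3 libraries cannot go below p = 0.1.

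In the knockout-labelled libraries, 2 of the 10 genes were called higher (LIF and CXCL5) and 1 lower (CCL20), where 34.8% of the 11577 genes tested were called higher and 31.5% lower (66.3% in all). Groups did not overlap for 4 of the 10 (LIF, CXCL5, CCL20 and IL18), against 71.8% of all genes tested. Of the 10, 4 (CXCL1, CXCL3, CCL2 and IL6) were under the filter, whereas the shares of all genes are over tested genes, so the 2 are not directly comparable. The 3 libraries may come from a single clone. Clone, lentiviral infection and all else that differs from the parental cells cannot be told apart from the edit of EGR1.

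The changes of several members moved with base composition. A smooth curve on the GC content and length of the transcript accounted for 18.5% of the variance of log2 differences among 10829 genes for EGR1 against vector, and for 54.3% among 10806 genes for knockout-labelled against parental libraries. CXCL8 and CCL20 have transcripts of 33.4% and 35.5% GC, IL18 of 42.3% and CXCL5 of 37.6%, CXCL1 and CXCL2 of 45.6% and 46.0%, and LIF of 56.9%. After subtraction of such a curve, fitted per library to its departures from the gene means, the difference of CXCL8 was 0.07 (adjusted p = 0.503) with EGR1 and 0.14 (adjusted p = 0.300) in knockout-labelled libraries. That of IL18 was 0.15 (adjusted p = 0.175) and -0.03 (adjusted p = 0.825), and that of CCL20 was 0.26 (adjusted p = 0.00924) and 0.04 (adjusted p = 0.825), all by limma. With this correction 34.7% of genes were called for EGR1 against vector and 46.7% for knockout-labelled against parental libraries. The calls of CXCL8 and IL18 in PLC/PRF5 cells and of CCL20 in MHCC97H cells were therefore lost, and the negative differences of CXCL8 and CCL20 in MHCC97H cells turned to small positive ones. LIF was still higher, by 1.34 (adjusted p = 3.45e-05) and 0.50 (adjusted p = 0.00506). CXCL1 and CXCL2 were still lower with EGR1, at -0.40 (adjusted p = 0.00295) and -0.59 (adjusted p = 0.00980), and CXCL5 was higher in knockout-labelled libraries by 1.01 (adjusted p = 0.000239). Such a correction also removes any response of the cells that follows GC content or length, and the share of the 2 was not tested.

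**Figure D2:**
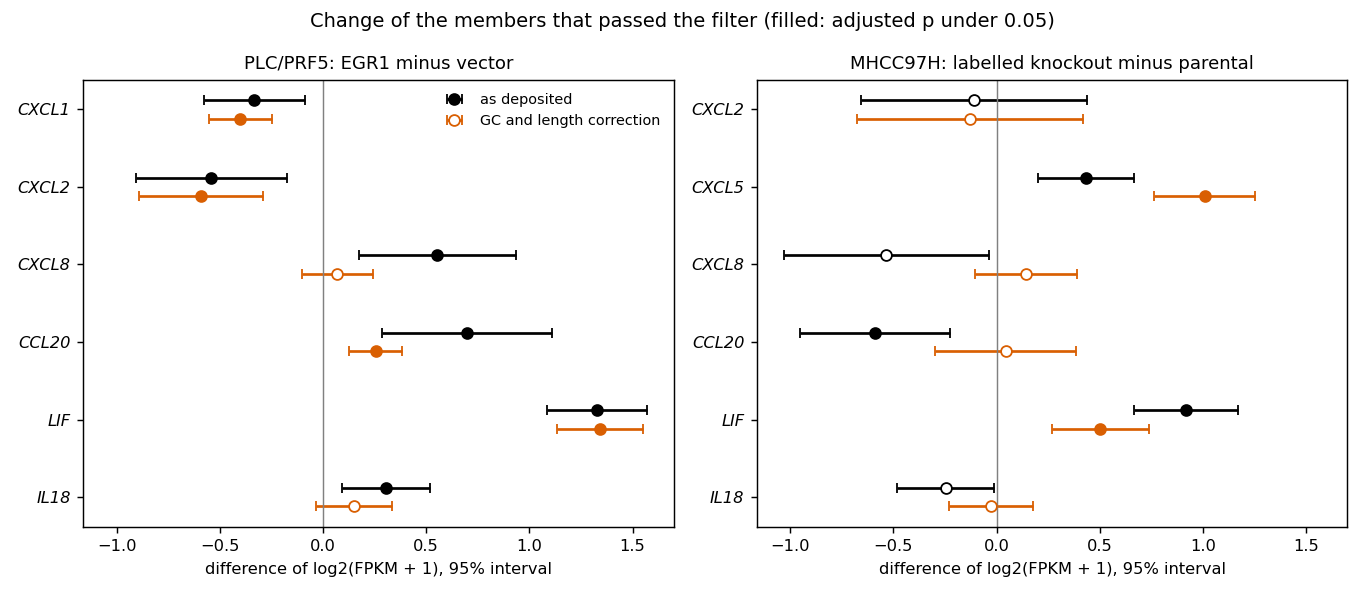
Difference of log2(FPKM + 1) with its 95% interval for the 6 genes that passed the filter in each comparison, EGR1 minus vector on the left and knockout-labelled minus parental on the right. Black points are the deposited values and orange points those after correction for GC content and length, filled where the adjusted p (limma) is under 0.05. LIF lies right of 0 in all 4 fits, whereas CXCL8 moves to near 0 with the correction in both lines.

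The difference between both responses was tested in 1 fit of all 12 libraries, as the change in knockout-labelled libraries minus the change with EGR1. Of the 10 genes, 7 passed the filter, 1 was called with a positive and 4 with a negative difference, where 30.4% of 12090 genes tested were called with a positive and 33.4% with a negative difference (63.8% in all). CCL20 differed by -1.29 (limma adjusted p = 0.00114), CXCL8 by -1.09 (limma adjusted p = 0.00845) and IL18 by -0.55 (limma adjusted p = 0.00360). All 3 were called higher with EGR1, whereas in the knockout-labelled libraries CCL20 alone was called lower and the differences of CXCL8 (-0.53) and IL18 (-0.25) did not pass the test. EGR1 mRNA was higher than in the controls in both perturbed groups. Corrected for GC content and length, their differences were -0.24 (adjusted p = 0.226), 0.04 (adjusted p = 0.821) and -0.19 (adjusted p = 0.228), and none of the 3 was called (limma), where 49.9% of genes were. LIF differed by -0.41 (limma adjusted p = 0.0178), its rise being smaller in MHCC97H cells on this scale, by -0.83 with the correction (limma adjusted p = 0.000236) and by -0.18 after quantile normalization, where it was not called (limma adjusted p = 0.224). CXCL5 differed by 0.42 (limma adjusted p = 0.00947), which is its change in MHCC97H cells, since it was at or near 0 in PLC/PRF5 cells. It was not called with a pseudocount of 0.1 (limma adjusted p = 0.111) or at the same total FPKM (limma adjusted p = 0.0912). For CXCL1 and CXCL2 the difference was 0.37 (95% interval -0.09 to 0.82) and 0.43 (95% interval -0.28 to 1.14) and did not pass the test (limma adjusted p = 0.140 and 0.269).

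The genes most like each member over the 12 libraries were found by Pearson's r of log2(FPKM + 1), which is given as a description because the 12 points share 2 cell lines and 4 groups and are not independent. The values were not corrected for GC content and length. CXCL8 and CCL20, the members with the lowest GC content, were most like each other of all genes (r = 0.997). Next came DDAH1 for CXCL8 (0.996) and ACADM for CCL20 (0.997). CXCL1 was nearest to the gap junction gene GJA1 (0.997) and the transcription factor HLF (0.996), and CXCL2 to SPRYD7 (0.963) and OSTC (0.962). CXCL5 was nearest to VSIG1 (0.999) and the bile acid receptor NR1H4 (0.999). LIF was nearest to OSGIN1 (0.988) and to the gp130 cytokine CLCF1 (0.966), and IL18 to CNIH1 (0.987) and MED7 (0.985). OSGIN1 was at means of 7.25, 24.4, 19.2 and 47.2 FPKM in vector, EGR1, parental and knockout-labelled libraries, the same order of groups as LIF.

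The 3′ UTRs of the members were searched for AUUUA, and AU-rich elements are a known trait of many genes of this class. AUUUA, the core of AU-rich elements, occurred at least once in the 3′ UTR of 9 of the 10 genes, IL18 being the exception, and of 70.7% of 17604 genes with a 3′ UTR of at least 100 bases. The median density over the 10 was 6.66 per kb of 3′ UTR, against 1.61 per kb over all genes, of which 4.16% were at or above the members' median. The genes were not matched for base composition, and its part in this density was not tested. IL6 (14.0 per kb) and CXCL2 (13.9 per kb) were densest. CCL2 had 2.66 per kb, and LIF, the gene with the highest GC content of the 10, had 2.18 per kb.

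The genes around the members were counted by lists, and their counts are to be read against the shares of all genes tested. The counts and medians of the lists are from values not corrected for GC content and length. These were 19.2% higher and 10.4% lower (29.6% in all) for EGR1 against vector, and 34.8% higher and 31.5% lower (66.3% in all) for knockout-labelled against parental libraries. Of 9 genes listed around mRNA decay, not all of which act on AU-rich elements, all passed the filter. With EGR1, 1 was called higher and 3 lower (median log2 difference -0.10, against 0.09 over all genes). ZC3H12A (regnase-1, which cuts IL6 mRNA) rose from a mean of 6.02 to 9.60 FPKM (difference 0.60, adjusted p = 0.00202). ZFP36 (tristetraprolin) fell from 56.1 to 43.2 FPKM (-0.37, adjusted p = 0.0129) and DUSP1 (the phosphatase of p38) from 169 to 140 (-0.28, adjusted p = 0.0452, and 0.0925 with the correction). In knockout-labelled libraries 5 were called higher and 0 lower (median 0.51, against 0.02), among them ZFP36 (18.1 to 37.9 FPKM, 1.03, adjusted p = 0.000354) and KHSRP (43.9 to 74.9 FPKM, 0.76, adjusted p = 0.000249). With the correction for GC content and length ZFP36 was at 0.46 and KHSRP at 0.24 there, both still called. All p-values of the lists are from limma.

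Of 12 receptors and decoys of these ligands, 4 passed the filter in PLC/PRF5 cells, with 2 called higher and 1 lower (median 0.40, against 0.09), and 3 in MHCC97H cells, with 0 higher and 2 lower (median -0.57, against 0.02). IL6ST, which encodes gp130, the subunit shared by IL6 and LIF, rose from 7.25 to 17.0 FPKM with EGR1 (1.12, adjusted p = 0.00237). IL18BP, the decoy of IL18, rose from 1.33 to 2.68 FPKM (0.67, adjusted p = 0.00741), and CCR6, the receptor of CCL20, fell from 5.42 to 3.15 FPKM (-0.63, adjusted p = 0.00198). In knockout-labelled libraries IL6ST fell from 20.7 to 10.6 FPKM (-0.94, adjusted p = 0.00466) and LIFR, the receptor of LIF, from 2.72 to 1.53 FPKM (-0.57, adjusted p = 0.0126). With the correction for GC content and length these 2 were at -0.14 (adjusted p = 0.310) and 0.26 (adjusted p = 0.0300), so that IL6ST was no longer called and LIFR was called in the other direction, while the rise of IL6ST with EGR1 was 0.63 and still called. Of 6 genes of IL-18 processing, 2 passed the filter in PLC/PRF5 cells and CASP4 rose (0.39, adjusted p = 0.0250). All 3 that passed in MHCC97H cells rose, with PYCARD from 49.0 to 109 FPKM (1.15, adjusted p = 9.64e-05) and GSDMD from 12.5 to 20.6 FPKM (0.68, adjusted p = 0.000315). The list's medians were 0.09 and 0.68, and with the correction PYCARD was at 0.43, still called, and GSDMD at 0.00 (adjusted p = 0.996).

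Of 16 inducing signals (the IL-1, TNF and Toll-like receptor genes and their adaptors), 7 passed the filter in PLC/PRF5 cells, with 1 called higher and 1 lower (median 0.13). IL1R1 rose from 5.10 to 6.49 FPKM (0.30, adjusted p = 0.0430, and 0.144 with the correction) and TNFRSF1A, the TNF receptor, fell from 146 to 108 FPKM (-0.43, adjusted p = 0.00645). In MHCC97H cells 11 passed, with 6 higher and 0 lower (median 0.60). IL1B, an inducer of CXCL8, rose from 1.02 to 3.77 FPKM (1.25, adjusted p = 9.10e-05) and TRAF2 from 13.3 to 25.4 FPKM (0.88, adjusted p = 8.67e-05). All 17 NF-kB genes passed the filter in both lines, with 5 higher and 2 lower with EGR1 (median 0.11) and 9 higher and 4 lower in knockout-labelled libraries (median 0.33). REL, an NF-kB subunit, rose from 0.747 to 2.18 FPKM (0.86, adjusted p = 0.000580) and NFKBIZ, a nuclear cofactor, from 0.965 to 2.32 FPKM (0.76, adjusted p = 0.00182) with EGR1, both from under 1 FPKM in vector libraries, whereas the inhibitor TNIP1 (-0.56, adjusted p = 0.00327) and BCL3 (-0.46, adjusted p = 0.0162) fell. In knockout-labelled libraries the inhibitor NFKBIB (1.09, adjusted p = 3.95e-05) and the kinase subunit IKBKG (1.01, adjusted p = 0.000112) rose, and the kinase CHUK (-1.21, adjusted p = 0.000233) and the target gene BIRC3 (-1.20, adjusted p = 0.000227) fell. The correction left the NF-kB genes named here and TRAF2 called at smaller size. In knockout-labelled libraries NFKBIB was at 0.39, IKBKG at 0.34, CHUK at -0.65, BIRC3 at -0.39 and TRAF2 at 0.24. REL was at 0.43 and BCL3 at -0.25 with EGR1. IL1B kept its size with the correction, at 1.25, and was still called.

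Of 16 STAT3 and acute phase genes, 9 passed the filter in PLC/PRF5 cells, with 1 higher and 2 lower (median 0.12). The fibrinogen gene FGB rose (0.45, adjusted p = 0.0326), and ORM1 (-0.84, adjusted p = 0.00191) and PIAS3 (-0.51, adjusted p = 0.00684) fell with EGR1. In MHCC97H cells 7 passed, with 6 higher and 1 lower (median 1.14). FGA rose from 3.19 to 24.8 FPKM (2.62, adjusted p = 5.25e-07) and FGB from 2.63 to 17.5 FPKM (2.35, adjusted p = 7.04e-06), while the kinase JAK1 fell from 37.4 to 27.3 FPKM (-0.45, adjusted p = 0.00270). Of 23 other chemokines and cytokines, 10 passed in PLC/PRF5 cells, with 4 higher and 3 lower (median 0.19), and 8 in MHCC97H cells, with 4 higher and 1 lower (median 0.38). With EGR1, IL11, another gp130 cytokine, rose from 0.301 to 3.74 FPKM (1.85, adjusted p = 6.90e-05) and CX3CL1 from 0.384 to 3.57 FPKM (1.73, adjusted p = 6.43e-05). These 2 genes passed the filter only through the EGR1 group. CXCL16 fell from 112 to 56.8 FPKM (-0.96, adjusted p = 0.000195) and MIF from 1496 to 957 FPKM (-0.64, adjusted p = 0.00422). In knockout-labelled libraries CSF1 rose from 34.5 to 84.1 FPKM (1.26, adjusted p = 1.86e-05) and CLCF1 from 6.70 to 15.1 FPKM (1.06, adjusted p = 5.06e-05), and CCL28 fell from 1.61 to 0.741 FPKM (-0.59, adjusted p = 0.00315, and 0.574 with the correction). The correction left FGB at 0.28 with EGR1 and JAK1 at -0.29, CSF1 at 0.77 and CLCF1 at 0.50 in knockout-labelled libraries, all still called. Between parental and vector cells, 38.8% of all genes tested were called higher and 40.9% lower (79.8% in all). There, 2 receptors were called higher and 2 lower, as were 8 and 1 inducing signals and 5 and 10 NF-kB genes. The counts were 2 and 4 for the mRNA decay list, 2 and 1 for IL-18 processing and 0 and 9 for STAT3 and acute phase genes. For other chemokines and cytokines they were 2 and 6.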

How the data were processed

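RNA was taken with Trizol from cultured cells, mRNA was selected with oligo(dT) beads, and libraries were treated with duplex-specific nuclease, which lowers abundant cDNA, before sequencing on an Illumina NovaSeq, per the labels. The authors deposited 1 table of FPKM values, made with StringTie on hg38 per the submitters' processing notes. The aligner, annotation and versions are not given in the sources used here. All 12 sample columns were used (0 left out). Columns were matched to groups by the labels. The labels call replicates biological but do not say whether they came from separate cultures, so p-values measure the spread between these libraries, which may be technical.

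From the deposited FPKM, log2(FPKM + 1) was computed. Genes whose FPKM averaged 1 or more over the libraries compared were fitted with limma 3.58.1 (R 4.3.3) with an intensity trend, 2-sided, and p-values were adjusted over all genes tested by the Benjamini-Hochberg method. A gene was called at an adjusted p under 0.05. A fold on this scale understates the change of low genes. GC content and transcript length were taken from GENCODE 29 (GRCh38), which matched 19458 of 19932 names (97.6%), the other 3031 being assembled loci, and were corrected with splines of 5 degrees of freedom. Alternatives were a pseudocount of 0.1, all genes above 0, scaling to the same total, quantile normalization, no trend, a replicate block, the GC and length correction, 1 fit of all libraries, and leaving out each library.

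The 10 members, the lists and the motifs were chosen with earlier results of these data known. Named are all members, EGR1, the 2 largest rises and falls among called genes of each list in both EGR1 comparisons, and the 2 genes most like each member (FPKM averaging 1 or more; XIST and Y-linked genes left out). Genes given as values of markers or cluster neighbours were named after their values were seen. Pairwise identities came from global alignment with Biopython 1.88.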

Additional observations from a re-analysis of the deposited data

Results flagged for a closer look

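The change in the libraries labelled knockout minus the change with EGR1 overexpression passed the test of the difference for 5 members (limma, 12 libraries). It was -1.29 for CCL20, -1.09 for CXCL8, -0.55 for IL18, -0.41 for LIF and 0.42 for CXCL5, in log2(FPKM + 1). With the correction for GC content and length, LIF was still called, at -0.83, and CCL20, CXCL8 and IL18 were not. LIF was not called after quantile normalization (-0.18), nor CXCL5 with a pseudocount of 0.1 (0.37) or at the same total FPKM (0.28). CXCL5 was listed at 0 in all vector and 2 EGR1 libraries, so it has no response in PLC/PRF5 cells to compare. EGR1 mRNA was higher than in the controls in both perturbed groups, and what sets these differences was not tested.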

How the results depend on the processing

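In 490 recomputed values, 415 stayed on their side of the threshold with the same sign (counts within a factor of 1.5), 45 were no longer past it, 11 came past it, 8 reversed and 11 counts moved further. LIF was called in 16 of 16 fits of both EGR1 comparisons (log2 difference 1.21 to 2.36 with EGR1, 0.50 to 1.18 in knockout-labelled libraries), and CXCL5 in 16 of 16 in MHCC97H cells (0.29 to 1.01).

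For EGR1 against vector (6 members called), 1 was called with all genes above 0 tested, 3 with all 12 libraries in 1 fit, and 1 to 4 when a library was left out. For knockout-labelled against parental libraries (3 called), 5 were called at the same total FPKM and 5 with all 12 libraries in 1 fit, and 3 to 4 when a library was left out. Scaling to the same total moved the median of all genes in that comparison from 0.02 to -0.11. Between parental and vector cells 7 were called in every fit. For the difference of responses (5 called), 2 (LIF and CXCL5, the latter with no level in PLC/PRF5 cells) were called with the GC and length correction, with or without a replicate block, and 5 to 6 when a library was left out.

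With the GC and length correction the knockout-labelled against parental difference reversed to 0.144 for CXCL8 and 0.0444 for CCL20, and the difference of responses to 0.0386 for CXCL8, with the same values under the block. That of CXCL2 in MHCC97H cells reversed to 0.0317 without parental replicate 1 and to 0.0822 without knockout-labelled replicate 1, over a range of -0.41 to 0.0822 when a library was left out. The cause was not tested.

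Same-numbered libraries did not all deviate together, replicate 3 of MHCC97H being the pair with the highest r (r of deviations -0.13 to 0.14 in PLC/PRF5, 0.03 to 0.47 in MHCC97H and -0.39 to -0.01 between the controls), so the numbers were not taken as pairs. With a replicate block 5, 4, 7 and 5 members were called in the 4 comparisons. Depth is unknown, CCL2 and IL6 were at or near 0, and CXCL3 varied between vector libraries from 0.300 to 1.25 FPKM.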
